A study of Mus musculus with 9 samples.

Results

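The genes described here handle glutamate, cystine and glutamine in astrocytes, and they were chosen by name as 8 rows of a table of 17730 genes. They are the glutamate transporter genes Slc1a2 and Slc1a3, the enzyme genes Glul and Glud1, the cystine/glutamate exchanger genes Slc7a11 and Slc3a2, and the glutamine transporter genes Slc38a1 and Slc38a3. All 8 were found, and all 8 reached 1 FPKM on average (fragments per kilobase of a transcript, relative to all mapped fragments of that library), the level required for testing. Both groups were primary astrocyte cultures from the brains of newborn (P0) wild-type C57BL/6 mice. One group received medium conditioned by microglia stimulated with lipopolysaccharide, a bacterial cell wall component (LPS-MCM, 3 libraries). The other received medium conditioned by microglia stimulated with hemin, the iron porphyrin released from hemoglobin (Hemin-MCM, 3 libraries). The series also has a group given medium of resting microglia, which was not analysed here, so higher and lower always mean LPS-MCM relative to Hemin-MCM. A difference can therefore come from a change in either group. Whether the 3 libraries of a group came from separate cultures is not stated, and every p-value therefore reflects library-to-library spread alone, which may be technical.

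Astrocytes clear glutamate from the space around synapses with sodium-driven transporters, convert it to glutamine with glutamine synthetase, and export glutamine for neurons to turn back into glutamate. The cystine/glutamate exchanger, called system xc-, runs the other way for glutamate: it brings in cystine, a source of cysteine for glutathione, and releases glutamate in return. Its light chain is xCT, encoded by Slc7a11, and its heavy chain is 4F2hc, encoded by Slc3a2, which several other amino acid transporters share. ATF4, a transcription factor of the amino acid stress response, and NRF2, a transcription factor of the oxidative stress response, are known activators of Slc7a11.

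The promoters of the exchanger subunits are shown because one subunit gene differed between the media and the other did not pass the test. RefSeq promoter windows of 300 bases (250 before and 50 after an annotated start, GRCm38.p6) were at hand for 6 of the 8 genes. Both are written 5′ to 3′ on the gene's strand, which is the minus strand for both, with matches to the ATF4-type element TGATGNAA (N for any base, either strand) in capitals. Each lies inside the annotated span of its gene, at an internal start. The last bases of the Slc7a11 window are held by 4 of 5 annotated transcripts of that gene. Those of the Slc3a2 window are held by 1 of 9. The windows thus stand for unlike shares of the transcripts of their genes. The Slc7a11 window lies at chr3:50443564-50443863 and the Slc3a2 window at chr19:8713848-8714147.
Slc7a11: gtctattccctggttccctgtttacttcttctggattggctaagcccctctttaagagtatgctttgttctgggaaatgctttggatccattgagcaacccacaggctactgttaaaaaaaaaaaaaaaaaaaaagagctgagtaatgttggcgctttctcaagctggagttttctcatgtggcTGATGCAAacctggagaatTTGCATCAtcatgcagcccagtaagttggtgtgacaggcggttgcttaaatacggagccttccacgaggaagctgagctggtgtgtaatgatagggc
Slc3a2: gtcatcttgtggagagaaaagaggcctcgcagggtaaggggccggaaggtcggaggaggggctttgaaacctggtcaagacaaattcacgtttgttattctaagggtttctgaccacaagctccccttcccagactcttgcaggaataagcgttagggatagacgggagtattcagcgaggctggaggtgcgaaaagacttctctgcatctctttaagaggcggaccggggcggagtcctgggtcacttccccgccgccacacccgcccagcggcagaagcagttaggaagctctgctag

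The Slc7a11 window held 2 matches to TGATGNAA, at bases 185 to 192 on the gene's strand and at bases 204 to 211 on the opposite strand, counted from 1 at the 5′ end. Of 32851 promoter windows of the same length, 3.97% held at least 1 match and 0.07% held 2 or more. The windows of the other 5 genes with an entry, Slc3a2 among them, held none. No window of the 6 genes held the NRF2-type element TGACNNNGC, which 12.4% of all windows held, or the NF-kB motif, which 8.46% held. The Slc1a2 window, at chr2:102706188-102706487, also lies inside the annotated span of its gene, at an internal start. The outermost annotated starts of Slc1a2, Slc7a11 and Slc3a2 were therefore not searched for any of these elements. The last bases of the Slc1a2 window were held by 0 of 12 annotated transcripts, and those of the Slc1a3 window by 0 of 8. The lack of matches in these windows therefore does not describe the starts of those transcripts. A match is a description of the letters in a window and does not show that a factor was bound. ATF4 was known beforehand as an activator of Slc7a11, so the share of windows with 2 or more matches is no test.

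Of the 8 genes, Slc7a11 and Slc1a2 were higher in LPS-MCM, Slc38a3, Slc38a1, Glud1 and Slc1a3 were lower, and Glul and Slc3a2 did not pass the test. The 3 LPS-MCM and 3 Hemin-MCM libraries did not overlap for the 6 called genes, and they did not overlap for 37.5% of all genes tested. Levels were converted to log2(FPKM + 1) and compared with limma's moderated test over all 11688 genes averaging 1 FPKM or more, with Benjamini-Hochberg adjustment and a threshold of 0.05. Of these genes, 20.5% were called, made up of 6.72% higher and 13.8% lower in LPS-MCM. Of all called genes, 32.8% were higher, against 46% when libraries were scaled by median-of-ratios factors. Differences of at least 1 on the log2 scale were called for 129 genes, and Slc7a11 was the only one of the 8 genes among them. The median difference over all genes tested was -0.04. The authors' table gives no read totals, but the steps between its lowest values gave each library a depth of 0.971 to 1.07 relative to the first LPS-MCM library, which was estimated at 35600000 fragments (quartiles over 228 genes 23600000 and 41100000). At that depth the lowest value of the 8 genes, 7.03 FPKM, stands for about 243 fragments on each kilobase of transcript, so counting error was small for all 8.

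**Figure D1:**
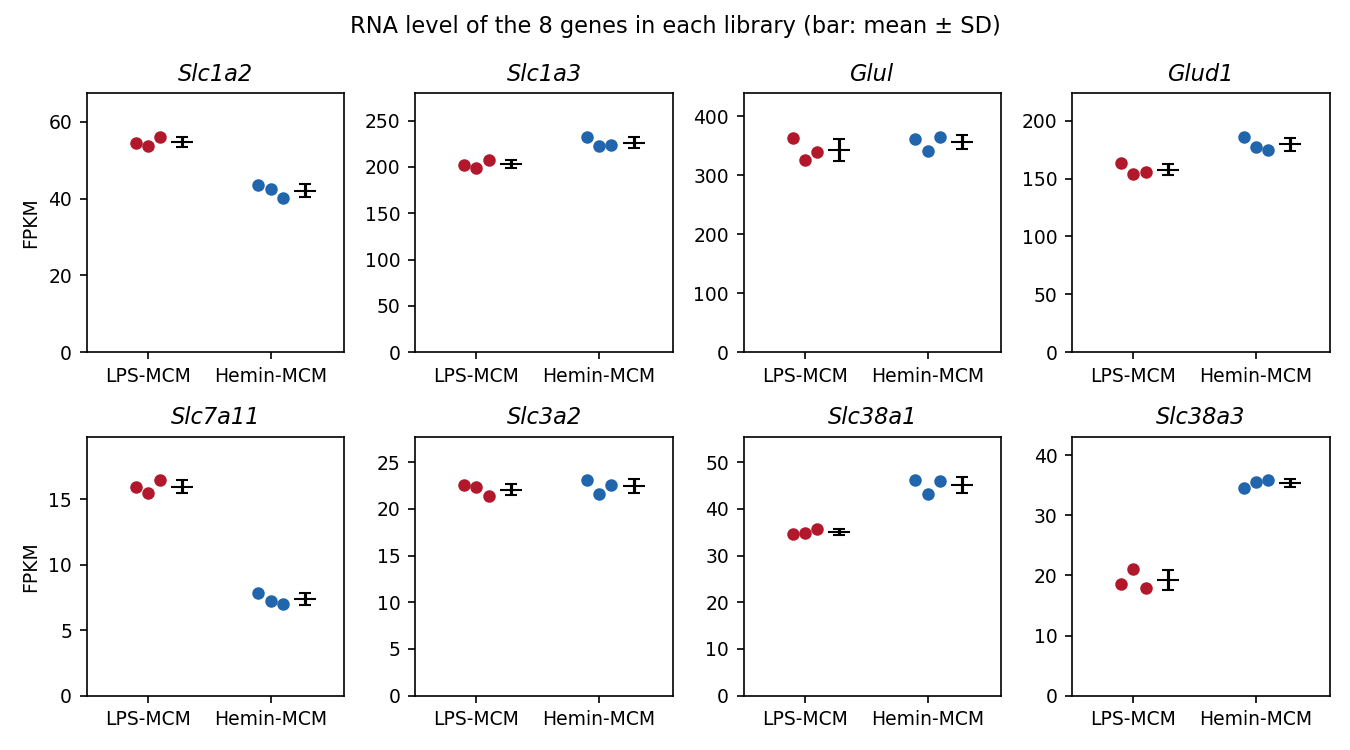
FPKM of the 8 genes in each LPS-MCM library (red) and Hemin-MCM library (blue), with the mean and SD of 3 libraries in black; each vertical axis starts at 0 and has its own range. The groups are separate for 6 genes and overlap for Glul (325.3 to 363.0 FPKM in LPS-MCM, against 342.0 to 365.6 FPKM in Hemin-MCM) and Slc3a2.

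The labelled cell type was checked against markers. For the counts below, 6.72% of all genes tested were higher and 13.8% were lower. The astrocyte genes Gfap, Aldh1l1 and Aqp4 averaged 456.4, 85.7 and 345.9 FPKM in LPS-MCM and 676.2, 101.9 and 368.0 FPKM in Hemin-MCM. Aqp4 did not pass (limma adjusted p = 0.392), and Aldh1l1 lost its call in 5 of 13 alternative fits. Of 11 tested astrocyte markers, which include Slc1a2 and Slc1a3, 7 were lower, 1 was higher and 3 did not pass, and the 12 listed genes summed to 1289 to 1332 FPKM in LPS-MCM, against 1598 to 1687 FPKM in Hemin-MCM. Microglial transcripts were also present: of 15 microglia and macrophage markers, 13 were lower and none was higher, with a summed level of 1819 to 2093 FPKM in LPS-MCM, against 3884 to 4195 FPKM in Hemin-MCM. Most of this sum was the lysozyme gene Lyz2. It averaged 1540.2 FPKM of a mean sum of 1960.5 in LPS-MCM, and 3302.5 FPKM of 4052 in Hemin-MCM. Among the defining genes of microglia, Cx3cr1 averaged 5.92 FPKM in LPS-MCM against 34.0 FPKM in Hemin-MCM, Tmem119 0.518 against 4.63 FPKM and P2ry12 0.397 against 2.05 FPKM. The 2 markers that did not pass were Itgam, at 98.9 FPKM in LPS-MCM and 108.2 FPKM in Hemin-MCM, and Ptprc, at 11.5 and 12.3 FPKM. Over the 15 markers the log2 difference ranged from -2.76 to -0.09. All 6 tested ependymal markers were lower, with Foxj1 at 127.2 FPKM in LPS-MCM and 168.6 FPKM in Hemin-MCM. Rbfox3, the defining marker of neurons, stayed at or below 0.0267 FPKM and Cldn5, that of endothelium, at or below 0.163 FPKM in every library. Of 4 tested neuron markers 2 were lower and 1, Gad1, was higher: the growth cone gene Stmn2 averaged 40.5 FPKM in LPS-MCM and 48.8 FPKM in Hemin-MCM (limma adjusted p = 0.0109), and the cytoskeletal gene Map2 6.17 and 7.69 FPKM (0.0174). The call for Map2 ended on leaving out LPS-MCM library 1 (0.0656) or Hemin-MCM library 1 (0.0615) or 3 (0.0569). Of 6 tested oligodendrocyte lineage markers 1 was lower, the transcription factor gene Olig1, at 43.7 FPKM in LPS-MCM and 51.3 FPKM in Hemin-MCM (limma adjusted p = 0.014). The call for Olig1 ended on leaving out LPS-MCM library 1 (0.0596) or Hemin-MCM library 2 (0.0699) or 3 (0.0549). The oligodendrocyte lineage genes Pdgfra and Mbp averaged 5.59 and 1.88 FPKM in LPS-MCM and 6.10 and 2.20 FPKM in Hemin-MCM and did not pass. The summed markers of neurons (54.6 to 59.4 FPKM in LPS-MCM, 65.6 to 70.5 FPKM in Hemin-MCM) and of the oligodendrocyte lineage (69.0 to 75.9 against 81.0 to 85.5 FPKM) lay lower in LPS-MCM without overlap. Of 7 tested markers of meningeal fibroblasts 2 were higher, in the direction of Slc7a11 and Slc1a2, and none was lower at the threshold. The collagen genes Col1a1, Col1a2 and Col3a1 lay the other way, with log2 differences of -0.59, -0.61 and -0.47 that did not pass. All LPS-MCM libraries were below all Hemin-MCM libraries for Col1a1 (at most 3.15 FPKM in LPS-MCM) and Col1a2 (at most 3.93 FPKM). Pdgfra (-0.11) and Foxc1 (0.15) did not pass either. The matrix proteoglycan genes Lum and Dcn averaged 8.33 and 3.69 FPKM in LPS-MCM and 3.02 and 2.10 FPKM in Hemin-MCM (limma adjusted p = 0.000133 for Lum and 0.00282 for Dcn), and both stayed called in each alternative fit that tested them. The fibroblast sum overlapped, at 25.3 to 30.6 FPKM in LPS-MCM, against 21.4 to 36.7 FPKM in Hemin-MCM, whose second library stood apart in Col1a1 (8.86 FPKM, against 3.39 and 3.29 FPKM in the others) and Col1a2 (10.1 FPKM, against 4.38 and 4.36 FPKM). No listed marker was at 0 in every library. Cell types other than astrocytes can express genes described here, and the part of these shifts in the results was not tested. In bulk RNA of this kind, fewer cells of a type and less RNA per cell cannot be told apart.

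Slc1a2 encodes GLT-1, the transporter that carries most glutamate uptake in the adult forebrain, and Slc1a3 encodes GLAST, the transporter that dominates in young and cultured astrocytes. Slc1a2 was at 54.5, 53.7 and 56.1 FPKM in LPS-MCM and at 43.4, 42.5 and 40.2 FPKM in Hemin-MCM. All 3 LPS-MCM libraries lay above all 3 Hemin-MCM libraries. Its mean was 30.4% higher in LPS-MCM, a log2 difference of 0.38 ± 0.05 (SE; 95% interval 0.27 to 0.48; limma adjusted p = 0.00046). Of all genes tested, 9.78% had an absolute difference at least as large.

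Slc1a3 was the more abundant of the pair, at 202.5, 199.0 and 207.5 FPKM in LPS-MCM and 232.6, 222.6 and 223.2 FPKM in Hemin-MCM. The groups did not overlap, and LPS-MCM was the lower one, opposite to Slc1a2. The mean was 10.3% lower, a log2 difference of -0.16 ± 0.05 (SE; limma adjusted p = 0.0411). This call for Slc1a3 was lost in 9 of 13 alternative fits: under median-of-ratios scaling (adjusted p = 0.148), quantile normalization (0.0568), no mean-variance trend (0.074) and the replicate block (0.066), and without the first (0.108) or second (0.108) LPS-MCM library or the first (0.142), second (0.101) or the third (0.109) Hemin-MCM library. Its lowest adjusted p over the alternatives was 0.0177.

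The ratio of Slc1a2 to Slc1a3 within a library does not depend on scaling by a single factor per library. Quantile normalization can change it and was not applied to the ratios. It was 0.269, 0.270 and 0.270 in LPS-MCM and 0.187, 0.191 and 0.180 in Hemin-MCM. The LPS-MCM ratios were nearly equal and all above the Hemin-MCM ratios, 1.45-fold higher on average. The exact two-sided permutation test gave p = 0.1 (0.1 after adjustment over the 4 ratios compared), the smallest value that 3 against 3 libraries allow. Slc1a2 made up 21.0 to 21.1% of the summed FPKM of the sodium-driven glutamate transporter genes Slc1a1, Slc1a2, Slc1a3 and Slc1a6 in LPS-MCM, against 15.1 to 15.8% in Hemin-MCM. Slc1a3 made up 77.7 to 77.9% in LPS-MCM, against 82.9 to 83.8% in Hemin-MCM. The summed level of the 4 genes was 256.2 to 266.3 FPKM in LPS-MCM, against 266.5 to 280.6 FPKM in Hemin-MCM. These family shares were chosen after the values were seen and are given as a description.

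**Figure D2:**
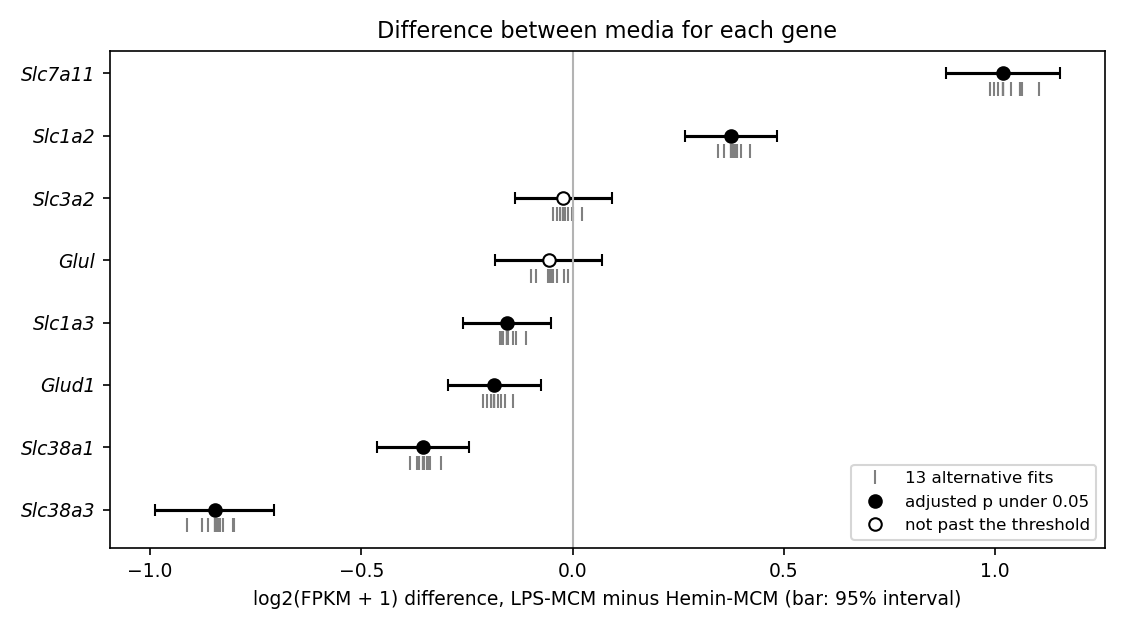
Difference of log2(FPKM + 1) between LPS-MCM and Hemin-MCM (horizontal axis, positive where LPS-MCM was higher) for each gene, with its 95% interval; grey ticks are the values in the 13 alternative fits. Slc7a11 (1.02) and Slc38a3 (-0.85) lie farthest from 0, and the intervals of Slc3a2 and Glul include 0.

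The glutamate-handling enzymes were the most abundant or among the most abundant of the 8 genes. Glul, the glutamine synthetase gene and a marker of astrocytes, was at 363.0, 325.3 and 339.6 FPKM in LPS-MCM and at 361.2, 342.0 and 365.6 FPKM in Hemin-MCM. The groups overlapped, and the log2 difference of -0.06 (95% interval -0.18 to 0.07) did not pass (limma adjusted p = 0.547). The interval leaves room for a fall of 0.18 on the log2 scale, larger than the difference of Slc1a3.

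Glud1, the gene of the mitochondrial glutamate dehydrogenase that turns glutamate into 2-oxoglutarate, was at 163.7, 154.2 and 155.7 FPKM in LPS-MCM and 186.3, 177.5 and 175.1 FPKM in Hemin-MCM. All LPS-MCM libraries were below all Hemin-MCM libraries. The mean of Glud1 was 12.1% lower, a log2 difference of -0.19 ± 0.05 (SE; limma adjusted p = 0.024). Median-of-ratios scaling ended the call for Glud1 (adjusted p = 0.0937), and so did leaving out the second LPS-MCM library (0.071) or any of the Hemin-MCM libraries (0.0947 without the first, 0.0701 without the second and 0.0569 without the third). The smallest adjusted p of Glud1 in any alternative fit was 0.0173. The ratio of Glul to Glud1 was 2.22, 2.11 and 2.18 in LPS-MCM and 1.94, 1.93 and 2.09 in Hemin-MCM, without overlap (exact two-sided permutation p = 0.1, the smallest possible).

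Slc7a11, the light chain that gives system xc- its cystine and glutamate transport, showed the largest difference of the 8 genes. It was at 15.9, 15.5 and 16.5 FPKM in LPS-MCM and at 7.86, 7.24 and 7.03 FPKM in Hemin-MCM. The lowest LPS-MCM library stood well above the highest Hemin-MCM library. The ratio of the means was 2.16, and the log2 difference was 1.02 ± 0.06 (SE; 95% interval 0.88 to 1.15; limma adjusted p = 3.26e-06). Only 1.05% of all genes tested had an absolute difference at least as large, and the difference stayed between 0.99 and 1.10 in all 13 alternative fits. Microglial marker genes were lower in LPS-MCM, and the part of microglial RNA in the difference of Slc7a11 was not tested.

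Slc3a2, the shared heavy chain, was at 22.5, 22.3 and 21.4 FPKM in LPS-MCM and at 23.1, 21.6 and 22.6 FPKM in Hemin-MCM. The groups overlapped. The log2 difference was -0.02 (95% interval -0.14 to 0.09; limma adjusted p = 0.814), so that the interval excludes a change as large as that of its light chain. There were 0.707, 0.694 and 0.770 units of Slc7a11 FPKM per unit of Slc3a2 FPKM in LPS-MCM and 0.340, 0.334 and 0.312 in Hemin-MCM, a 2.20-fold higher ratio (exact two-sided permutation p = 0.1, the smallest possible).

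Slc7a11 shares its heavy chain with other light chains, of which Slc7a5 and Slc7a8 carry large neutral amino acids and Slc7a6 and Slc7a7 exchange basic for neutral ones. Slc7a11 made up 40.1 to 44.0% of the summed FPKM of 6 light chain genes in LPS-MCM, against 21.4 to 24.9% in Hemin-MCM. The sum itself was 37.4 to 38.7 FPKM in LPS-MCM, against 31.5 to 32.9 FPKM in Hemin-MCM. Slc7a8 averaged 7.61 ± 0.257 FPKM in LPS-MCM and 9.54 ± 0.734 FPKM in Hemin-MCM (SD, n = 3 each), a log2 difference of -0.29 ± 0.07 (SE; limma adjusted p = 0.0127). The call for Slc7a8 was lost without the second (adjusted p = 0.0573) or the third (0.0638) Hemin-MCM library. Slc7a5 (7.12 and 7.89 FPKM in LPS-MCM and Hemin-MCM), Slc7a6 (3.00 and 2.69 FPKM) and Slc7a7 (4.22 and 4.70 FPKM) did not pass. Slc7a10 stayed at or below 0.188 FPKM in every library. In the largest-to-smallest order of light chains, Slc7a11 came first in LPS-MCM. In Hemin-MCM it came after Slc7a8 and Slc7a5, and its libraries there (7.03 to 7.86 FPKM) overlapped those of Slc7a5 (7.62 to 8.16 FPKM).

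**Figure D3:**
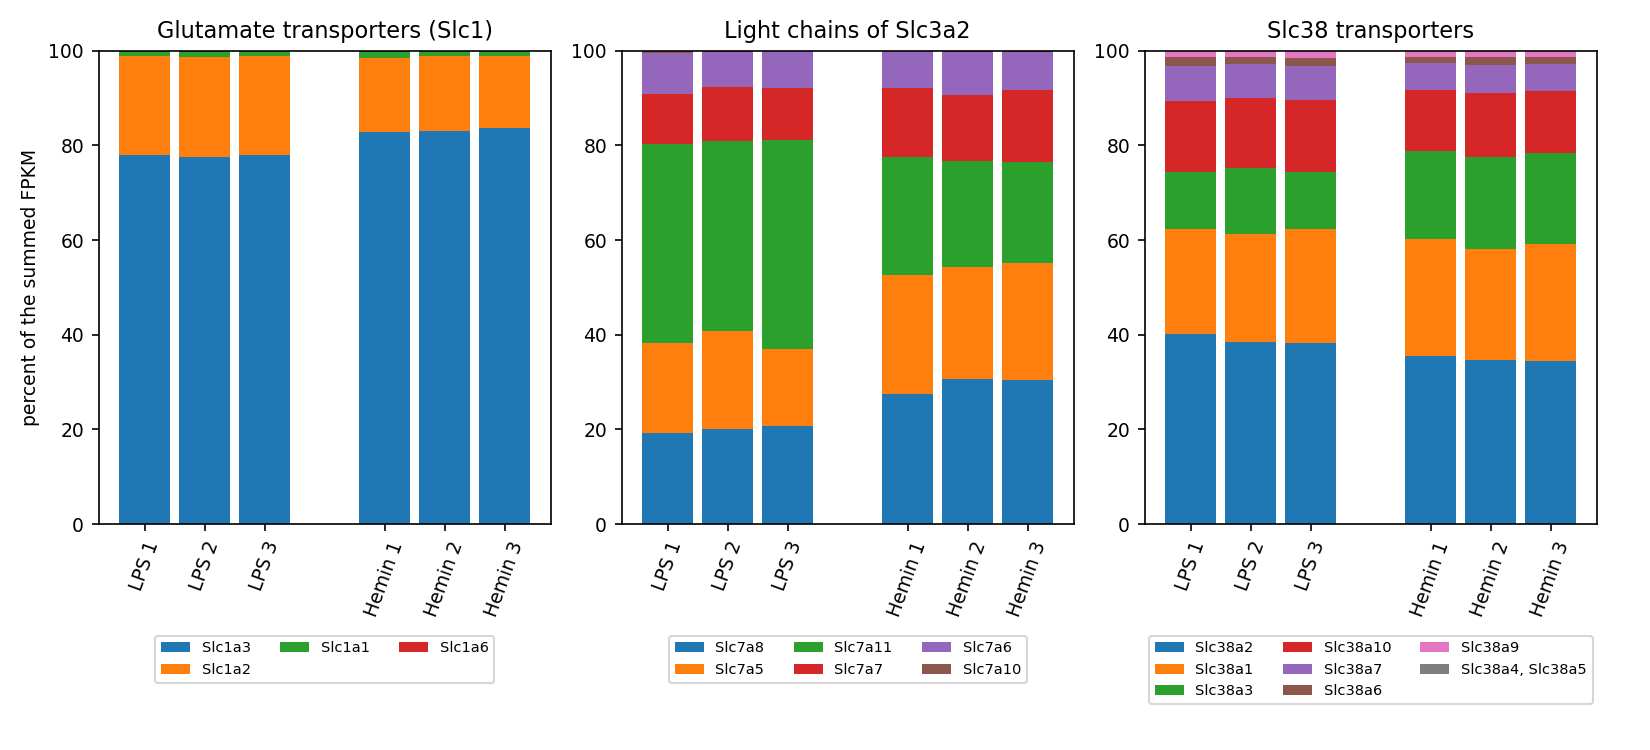
Percent of the summed FPKM that each gene takes within its transporter family, per library, with LPS-MCM libraries on the left of each panel and Hemin-MCM libraries on the right. The light chain gene Slc7a11 takes 40.1 to 44.0% in LPS-MCM, against 21.4 to 24.9% in Hemin-MCM, and Slc38a3 at most 13.9% in LPS-MCM, against at least 18.5% in Hemin-MCM.

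The glutamine transporters were both lower in LPS-MCM. Slc38a3 encodes SNAT3 (also called SN1), which astrocytes use to release glutamine, and it was at 18.7, 21.1 and 17.9 FPKM in LPS-MCM and 34.6, 35.6 and 35.9 FPKM in Hemin-MCM. The groups were far apart, and the LPS-MCM libraries varied more (coefficient of variation 8.73%) than those of Hemin-MCM (1.92%). The mean of Slc38a3 was 45.6% lower, a log2 difference of -0.85 ± 0.06 (SE; 95% interval -0.99 to -0.71; limma adjusted p = 1.28e-05), and 1.6% of all genes tested had an absolute difference at least as large. It ranged from -0.91 to -0.80 over the alternative fits. Microglial markers were lower in the same libraries, and their part in the lower level of Slc38a3 was not tested.

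Slc38a1 encodes SNAT1, a sodium-driven glutamine importer best known from neurons. It was at 34.5, 34.8 and 35.7 FPKM in LPS-MCM and at 46.1, 43.1 and 46.0 FPKM in Hemin-MCM, again without overlap. The log2 difference was -0.35 ± 0.05 (SE; 95% interval -0.46 to -0.25; limma adjusted p = 0.000605), and it held in every alternative fit. The ratio of Slc38a1 to Slc38a3 was 1.85, 1.65 and 1.99 in LPS-MCM and 1.34, 1.21 and 1.28 in Hemin-MCM, 1.43-fold higher (exact two-sided permutation p = 0.1, the smallest possible). Slc38a2, their relative with the highest level, averaged 59.1 ± 2.77 FPKM in LPS-MCM and 64.7 ± 1.36 FPKM in Hemin-MCM (SD, n = 3 each) and did not pass (limma adjusted p = 0.1). The summed FPKM of 9 Slc38 genes was 148.7 to 155.1 in LPS-MCM, against 183.7 to 186.4 in Hemin-MCM, without overlap.

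The order of the levels, which FPKM allows because it is per length, was nearly the same in both groups. Glul led in both, followed by Slc1a3 and then Glud1, and Slc7a11 came last in both. In LPS-MCM the middle of the order was Slc1a2, Slc38a1, Slc3a2 and Slc38a3, and no neighbours overlapped. In Hemin-MCM it was Slc38a1, Slc1a2, Slc38a3 and Slc3a2, where the libraries of Slc38a1 (43.1 to 46.1 FPKM) overlapped those of Slc1a2 (40.2 to 43.4 FPKM). The mean of Glul lay above 99.1% of tested genes in both groups, and that of Slc7a11 above 65.0% in LPS-MCM and 39.5% in Hemin-MCM.

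Other genes of the pathway were taken from 8 lists, which were drawn up with earlier results of these data known, so their share of called genes is a description. Of their 130 distinct genes, 101 were tested, and 11 were higher and 21 lower in LPS-MCM, which is 31.7% called against 20.5% of all genes tested. By direction, 6.72% of all genes tested were higher and 13.8% were lower. Of 17 tested amino acid transporter genes outside the 8, only Slc7a8 was lower and none was higher at the threshold, and the list median was -0.09. Of 21 tested enzymes of glutamate and glutamine metabolism, 3 were lower and none was higher, with a median of -0.13. Psat1, which passes nitrogen from glutamate to serine synthesis, averaged 40.4 ± 1.07 FPKM in LPS-MCM and 55.1 ± 1.13 FPKM in Hemin-MCM (SD, n = 3 each; log2 difference -0.44 ± 0.05, SE). Phgdh, the first enzyme of the serine pathway, averaged 26.9 ± 2.09 FPKM in LPS-MCM and 35.0 ± 1.00 FPKM in Hemin-MCM (-0.37 ± 0.06). Oat, the ornithine aminotransferase gene, was lower by a log2 difference of -0.24, a call lost with no filter (adjusted p = 0.0737), with median-of-ratios scaling (0.0859) and on leaving out the first (0.0801), second (0.0547) or the third (0.107) Hemin-MCM library. The aspartate aminotransferase genes Got1 (9.50 and 10.5 FPKM in LPS-MCM and Hemin-MCM) and Got2 (48.9 and 51.1 FPKM) did not pass.

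**Figure D4:**
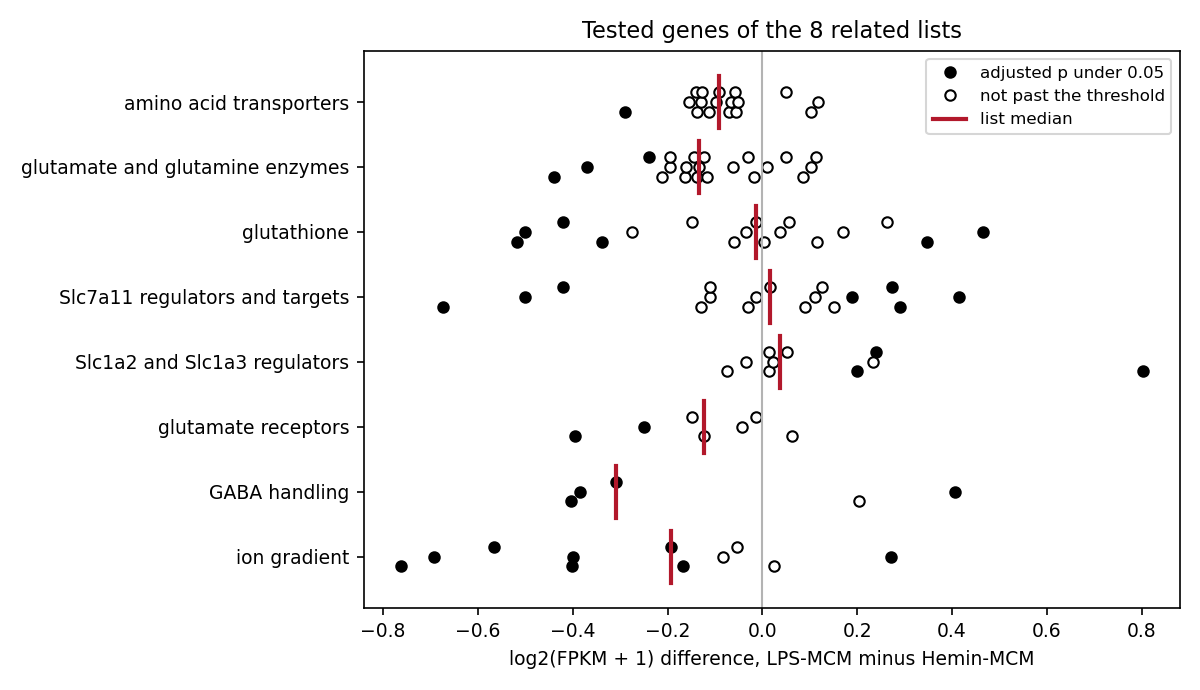
Difference of log2(FPKM + 1), LPS-MCM minus Hemin-MCM, for each tested gene of the 8 related lists; filled points passed the threshold and the red line is the list median. The ion gradient list has 7 of 11 genes lower, and the lists of glutathione genes and of Slc7a11 regulators and targets have genes past the threshold on both sides of 0.

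Genes that use imported cystine to make and recycle glutathione moved in both directions. Of 17 tested, 2 were higher and 4 were lower (6.72% and 13.8% of all genes tested), with a median of -0.01. Gsr, the glutathione reductase gene, averaged 49.9 ± 1.96 FPKM in LPS-MCM and 35.9 ± 1.78 FPKM in Hemin-MCM (SD, n = 3 each; log2 difference 0.47 ± 0.05, SE), and the export pump gene Abcc1 differed by 0.35 ± 0.06. Gclm, the modifier subunit of the first enzyme of glutathione synthesis, averaged 19.6 ± 1.32 FPKM in LPS-MCM and 26.5 ± 1.83 FPKM in Hemin-MCM (-0.42 ± 0.07), and the catalytic subunit gene Gclc did not pass at 60.7 ± 1.97 and 62.2 ± 2.10 FPKM in LPS-MCM and Hemin-MCM. The peroxidase genes Gpx1 (-0.52 ± 0.06) and Gpx4 (-0.34 ± 0.07) and the glutathione-degrading enzyme gene Chac1 (-0.50 ± 0.10, at 0.731 and 1.45 FPKM in LPS-MCM and Hemin-MCM) were the other lower ones.

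The list of known regulators of Slc7a11 and of other ATF4 and NRF2 targets had 4 genes higher and 3 lower of 17 tested. Its median was 0.02, and 6.72% of all genes tested were higher and 13.8% lower. Atf4 itself averaged 100.9 ± 3.95 FPKM in LPS-MCM and 82.3 ± 2.96 FPKM in Hemin-MCM (SD, n = 3 each; log2 difference 0.29 ± 0.05, SE). Its partner gene Cebpb averaged 109.4 ± 8.76 and 81.8 ± 4.94 FPKM in LPS-MCM and Hemin-MCM (0.41 ± 0.07). Atf3 (0.27 ± 0.07) lost its call on leaving out Hemin-MCM library 1 (adjusted p = 0.0553) or 3 (0.0525). Bach1, a repressor of NRF2 targets (0.19 ± 0.05), lost it without the first (0.113) or second (0.0529) LPS-MCM library or the second (0.0927) or the third (0.125) Hemin-MCM library. The ATF4 target Asns did not pass, at 7.88 ± 0.399 and 8.07 ± 0.414 FPKM in LPS-MCM and Hemin-MCM, and neither did the NRF2 gene Nfe2l2, at 184.5 ± 13.3 and 168.9 ± 3.71 FPKM. The lower genes were the heme oxygenase 1 gene Hmox1 (-0.67 ± 0.06), Chac1 and Gclm, which are NRF2 or ATF4 targets as Slc7a11 is. Without the third Hemin-MCM library 2 genes of this list were higher in place of 4.

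Of 10 proposed regulators of Slc1a2 and Slc1a3 transcription, 3 were higher and none was lower (6.72% and 13.8% of all genes tested). The list median was 0.04. Egfr, the receptor gene of epidermal growth factor, averaged 20.7 ± 0.419 FPKM in LPS-MCM and 11.5 ± 0.967 FPKM in Hemin-MCM (SD, n = 3 each; log2 difference 0.80 ± 0.06, SE). The NF-kB subunit genes Nfkb1 (0.24 ± 0.05) and Rela (0.20 ± 0.05) were the others, and Rela lost its call without the third Hemin-MCM library (adjusted p = 0.0906).

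Genes that maintain the ion gradients driving glutamate uptake were lower in 7 of 11 cases and higher in 1, with a median of -0.19. Over all genes tested, 13.8% were lower and 6.72% higher. Kcnj10, the inward rectifier that buffers potassium, averaged 43.0 ± 2.37 FPKM in LPS-MCM and 64.1 ± 2.16 FPKM in Hemin-MCM (SD, n = 3 each; log2 difference -0.57 ± 0.05, SE). The pump regulator gene Fxyd1 (-0.40 ± 0.05), the bicarbonate cotransporter gene Slc4a4 (-0.40 ± 0.06) and the pump subunit gene Atp1b1 (-0.17 ± 0.05) were among the other lower ones. Atp1b1 lost its call in 8 of 13 alternative fits, with adjusted p between 0.0539 and 0.114 there. The subunit gene Atp1b3 was higher (0.27 ± 0.05). Astrocyte and ependymal markers were lower in the same libraries, and their part in this list was not tested.

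The lists on transmitter receptors and GABA held few genes at the level required for testing. Beside their counts, 13.8% of all genes tested were lower and 6.72% higher. Of 7 tested glutamate receptor genes, Gria1 (1.22 ± 0.0881 FPKM in LPS-MCM and 1.92 ± 0.0387 FPKM in Hemin-MCM, SD, n = 3 each) and Grik4 were lower and none was higher, with a median of -0.12. Grik4 lost its call in 10 of 12 alternative fits, with adjusted p up to 0.315. Of 5 tested genes of GABA uptake and turnover, 3 were lower and 1 was higher, with a median of -0.31. The number higher was 2 with no filter and without any 1 of the 3 Hemin-MCM libraries, and 0 at a minimum of 5 FPKM. The lower ones included the GABA-degrading enzyme genes Abat (-0.31 ± 0.05) and Aldh5a1 (-0.38 ± 0.08), and the higher one was Gad1, which makes GABA from glutamate (0.41 ± 0.07). Gad1 averaged 2.18 ± 0.035 FPKM in LPS-MCM and 1.40 ± 0.0286 FPKM in Hemin-MCM (SD, n = 3 each).

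The genes whose profiles over the 6 libraries were most like those of Slc7a11 and Slc1a2 were found by the Euclidean distance between log2(FPKM + 1) values, each centred on its gene's mean, among 8233 genes averaging 5 FPKM or more. For Slc7a11 they were Slc7a2 (distance 0.128), Adm (0.153), Samsn1 (0.19), Nlrp3 (0.194) and Gbp4 (0.195). Slc7a2, an arginine transporter gene of the same family, averaged 125.2 ± 4.03 FPKM in LPS-MCM and 60.0 ± 1.15 FPKM in Hemin-MCM (SD, n = 3 each), a log2 difference of 1.05. For Slc1a2 they were Serp1 (0.0412), Il1rap (0.0567), Acsl4 (0.0574), Acsl5 (0.0577) and Rhoq (0.0704), with log2 differences between 0.33 and 0.39. Among the 8 genes, Slc1a3 and Glud1 were each other's nearest (0.0872), as were Glul and Slc3a2 (0.125). For Slc38a1 the nearest of the 8 was Glud1 (0.241), and for Slc38a3 it was Slc38a1 (0.639). Among all 8233 genes, the 5 nearest to Slc38a3 were C1qb (0.129), Cd72 (0.133), Fmnl1 (0.133), Emp1 (0.135) and Mcm2 (0.137). Their log2 differences lay between -0.89 and -0.75. Of these genes, only the complement gene C1qb is a listed microglia and macrophage marker. C1qb averaged 62.7 ± 7.84 FPKM in LPS-MCM and 116.7 ± 5.55 FPKM in Hemin-MCM (SD, n = 3 each), a log2 difference of -0.89.

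In RefSeq (GRCm38.p6) Slc1a2 spans bases 102658239 to 102790784 of chromosome 2, Slc7a11 bases 50364936 to 50499087 of chromosome 3 and Slc38a3 bases 107651154 to 107668968 of chromosome 9. Glul spans bases 153899929 to 153909723 of chromosome 1, Glud1 bases 34310727 to 34345033 of chromosome 14 and Slc3a2 bases 8706882 to 8723369 of chromosome 19. Slc1a3 (bases 8634124 to 8710807) and Slc38a1 (bases 96571418 to 96643438) both lie on chromosome 15, far apart. In the GENCODE vM21 annotation the antisense gene Gm13872 overlaps Slc1a2, and the antisense gene Gm37854 and 3 processed pseudogenes overlap Slc7a11. The protein-coding gene Teddm2, on the opposite strand, and the microRNA gene Mir8114 overlap Glul. On the same strand, Gm37310 overlaps Slc1a3 and Gm37498 overlaps Slc7a11. The kit keeps strand, per the labels' protocols, but the counting is not stated to use it, so reads of a gene and its antisense partner may not be told apart in these values.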

How the data were processed

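RNA of primary mouse astrocyte cultures given LPS-MCM or Hemin-MCM was measured in 3 libraries each, prepared with the TruSeq Stranded mRNA kit, per the labels' protocols. FPKM of 17730 genes stand in a single table the authors deposited, and the submitters' processing notes name the build mm10 and the tool DESeq. Which aligner, counting tool and annotation made them is not stated in the sources used here. A column was assigned to the sample whose title has its treatment and number, and 3 further columns of values that match no sample title were not used.

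FPKM are not counts, so log2(FPKM + 1) values were compared by limma 3.58.1 (R 4.3.3) for the 11688 genes averaging 1 FPKM or more, using a variance trend, two-sided tests and Benjamini-Hochberg adjustment over all genes tested. Fold changes on this scale understate the change of low genes. SE is limma's moderated standard error. Within-library ratios were compared with exact permutation tests.

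The 8 genes and all lists were chosen with earlier results of these data known. Named genes are the 8, up to 6 called genes per list and direction by adjusted p, the nearest profiles and defining markers; some genes that this rule names are not reported here. Genes named beyond that (Atp1b1, Gclc, Asns, Nfe2l2, Got1, Got2, Slc38a2, Cd44, Pamr1, Slc6a11, Slc6a12, Stmn2, Map2, Olig1, Lum, Dcn, Col1a1, Col1a2, Col3a1, Foxc1, Lyz2, Itgam, Ptprc, C1qb, Cd72, Fmnl1, Emp1, Mcm2 and the light chains) were chosen after their values were seen. Alternatives were another pseudocount (0.1), no filter, a minimum of 5 FPKM, median-of-ratios and quantile scaling, no variance trend, a replicate block, and leaving out each library.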

Additional observations from a re-analysis of the deposited data

How the results depend on the processing

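Over the 13 alternative fits, Slc7a11, Slc1a2, Slc38a1 and Slc38a3 kept their call and direction, with log2 differences of 0.99 to 1.10, 0.34 to 0.42, -0.39 to -0.31 and -0.91 to -0.80, and Glul stayed uncalled. Of the 8 genes, 6 were called under the smaller pseudocount, no filter and the minimum of 5 FPKM, 5 under quantile normalization and no trend, 4 under median-of-ratios scaling and 4 to 6 without 1 library. Slc3a2 turned to 0.0213 under median-of-ratios scaling and lay between -0.0464 and 0.00064 without 1 library, uncalled each time. Gclc turned to 0.00989 under median-of-ratios scaling, and Asns to 0.0100 there, to 0.0204 under quantile normalization and to between -0.0599 and 0.0062 without 1 library, all uncalled. The number of genes lower in LPS-MCM was 1614, and 1058 to 1652 without 1 library, lowest without the third Hemin-MCM library. The cause of these changes was not tested.

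No pairing by replicate number was seen: deviations from the group mean correlated at 0.0796, 0.107 and -0.106 between same-numbered libraries. Between differently numbered libraries the correlations ranged from -0.212 to 0.126. With 3 libraries a group, these values cannot show that the libraries were unpaired. With the replicate block 2330 genes were called against 2400, and 5 of the 8 genes. The depth estimate rests on the steps of low values, and the ratios can reach no p below 0.1 with 3 libraries a group.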

Other observations

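Chromosomal neighbours of the 8 genes were compared as a description, using the nearest tested protein-coding gene on each side in RefSeq (GRCm38.p6). Of these 16 neighbours, Cd44, the hyaluronan receptor gene that lies 20357 bases beyond Slc1a2, was the one past the threshold. Over all genes tested, 20.5% were called. Cd44 averaged 229.9 ± 8.28 FPKM in LPS-MCM and 167.2 ± 6.58 FPKM in Hemin-MCM (SD, n = 3 each), a log2 difference of 0.46 ± 0.05 (SE; limma adjusted p = 0.000173), in the same direction as Slc1a2. On the other side of Slc1a2, Pamr1 did not pass, at 3.50 ± 0.525 and 2.94 ± 0.278 FPKM in LPS-MCM and Hemin-MCM. Slc38a2, the neighbour of Slc38a1 at 43954 bases, did not pass.

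The betaine and GABA transporter gene Slc6a12 fell below the level required for testing. It was at 1.23, 1.49 and 1.39 FPKM in LPS-MCM and at 0.502, 0.535 and 0.473 FPKM in Hemin-MCM, so its libraries did not overlap between the groups. The GABA transporter gene Slc6a11, also below that level, lay the other way without overlap. It was at 0.0759, 0.124 and 0.181 FPKM in LPS-MCM and at 0.391, 0.325 and 0.362 FPKM in Hemin-MCM. Of all genes tested, which excludes genes this low, 37.5% did not overlap.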
